A study of Mus musculus with 30 samples.

Results

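The triceps brachii of male mice was compared between transection of the spinal cord at the ninth thoracic level (T9) and sham surgery, 3 days after the operation. All libraries labelled as triceps in those groups entered, 6 sham and 6 T9, which makes 12 of the 30 libraries of the series. Messenger RNA was sequenced from each muscle sample, and the deposited table held 11249 genes. The 6 triceps libraries after transection at the third thoracic level (T3) and the gastrocnemius libraries (4 sham, 4 T3, 4 T9) served as references. The labels give no strain, no age, no course of the sham operation and no statement that each library came from a different animal, so the p-values measure the spread between these samples. Of the 6 triceps libraries in each group, 4 carry the number 60 and 2 the number 57 at the start of their description, and the fits of the triceps reported here included that number as a term. The title of the series links muscle wasting in acute cord injury to neuroendocrine tone that varies with where the lesion lies.

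The triceps brachii is a forelimb extensor supplied by the radial nerve, whose motor neurons lie above a lesion at T9, so its own nerve supply is spared. The gastrocnemius, a calf muscle, is supplied from below the lesion. Wasting muscle is known to raise a common set of transcripts, among them the ubiquitin ligases atrogin-1 and MuRF1, proteasome subunits and lysosomal proteases, in response to glucocorticoids, inflammation, fasting or disuse, and it commonly lowers genes of energy metabolism. A lesion high in the thoracic cord also cuts descending control over most of the sympathetic outflow, the adrenal gland included, whereas a lesion at T9 leaves more of it connected.

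The 12 libraries held 13.3 to 22.98 M reads each (M for 1e+06) in the listed genes. All 14 genes of the skeletal muscle identity list were present, with the skeletal actin gene Acta1 and the muscle creatine kinase gene Ckm among them, and Tbx5 and Pitx1, which mark forelimb and hindlimb, were not in the table, so the limb could not be checked from them. Libraries stood apart within the sham group. The median over genes of the log2 values was 3.29 in sham replicate 3 and 3.55 in sham replicate 4, against 3.71 to 3.98 in the other 4 sham libraries and 3.67 to 4.03 after T9. Sham replicate 4 held 705 CPM (reads per 1e+06) of Lyz2, the lysozyme gene of macrophages, and a summed level of 1196 CPM over 14 macrophage markers, where the median sham library had 53. The mean difference between the library medians, T9 minus sham, was 0.17 (exact two-sided permutation test over 924 splits, p = 0.227). The main counts and several lists and genes are given without both libraries as well.

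**Figure D1:**
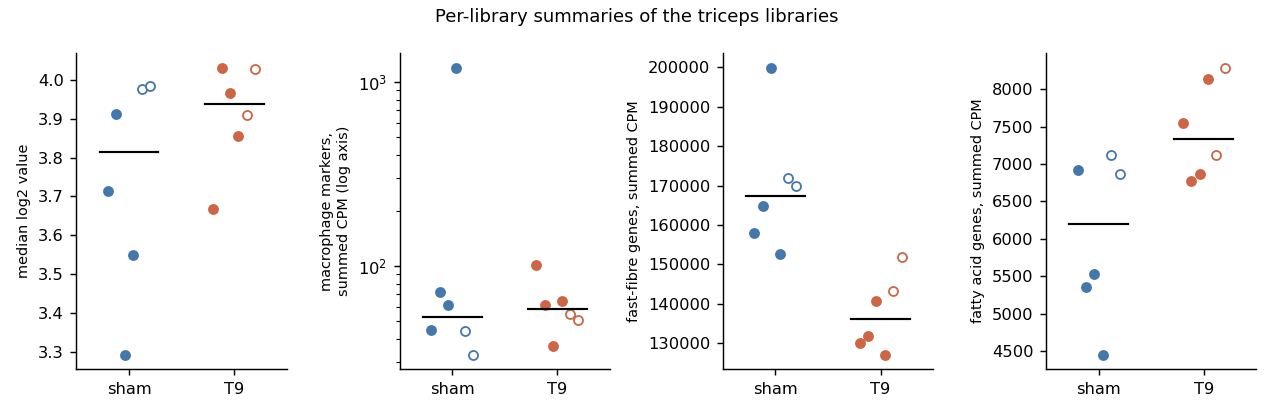
Each point is 1 triceps library, filled for the label number 60 and open for 57, and the bar is the group's median. From left to right the panels show the median log2 value, the summed CPM of 14 macrophage markers on a log axis, of 21 fast-fibre contractile genes and of 42 fatty acid genes. The sham libraries spread more than the T9 libraries in the first panels, and 1 sham library at 1196 CPM lies far above all others for macrophage markers.

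T9 transection left a narrow distribution of differences in the triceps. The log2 change, T9 minus sham, lay between -0.53 and 0.84 for the central 98% of genes (1st to 99th percentile), with a median of 0.17. With limma and a Benjamini-Hochberg adjusted p under 0.05 as the threshold, 1 gene was called higher (0.00889% of 11249) and 0 lower (0%). At an unadjusted p under 0.05 there were 1118 higher (9.94%) and 67 lower (0.596%). After each library was centred on its median, which removes the shift of 0.17, those counts became 410 (3.64%) and 241 (2.14%). Without sham replicates 3 and 4 they were 529 and 113, and the median change was 0.04. Leaving out single libraries gave 643 (without sham replicate 3) to 1691 (without sham replicate 2) higher and 46 to 143 lower. In the gastrocnemius of the same series limma called 4226 genes higher (37.6%) and 638 lower (5.67%) after T9, from 4 libraries a group.

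**Figure D2:**
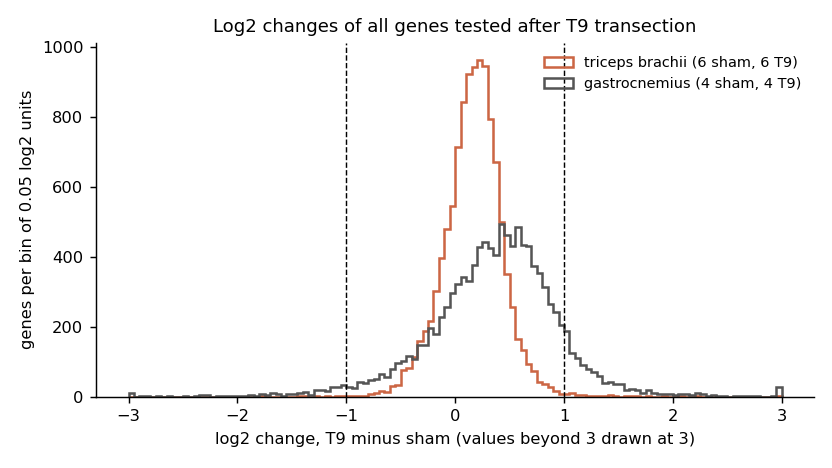
Number of genes (vertical axis, per bin of 0.05) by log2 change, T9 minus sham, in the triceps and in the gastrocnemius. Dashed lines mark a 2-fold change, and values beyond 3 are drawn at 3. The triceps curve is the narrower, with a median of 0.17 against 0.40 in the gastrocnemius.

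A missed threshold does not show that a gene was alike in both groups, so each gene was also tested against a margin. With 2 one-sided moderated tests per gene, 9795 genes (87.1%) were shown to lie within 2-fold of sham at an adjusted p under 0.05, and 10219 (90.8%) after centring. Within the narrower margin of 1.5-fold the count was 3585 (31.9%). The counts of each gene list given below are to be read against these shares of all genes. The 95% interval of a gene's change reached a median of 0.45 log2 units to either side. A gene with the median standard error of 0.213 needed a 2.59-fold change to pass the first Benjamini-Hochberg step, which applies to the smallest p alone. The change needed is smaller where more genes pass. Of the 1934 genes with a mean log2 value under 2, 75.8% were placed within 2-fold, against 92.1% of the 1296 genes between 6 and 8 and 88.5% of the 435 genes at 8 or more. The remaining 1453 genes (12.9%) were neither called nor bounded by the margin.

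The called gene was Gm5532, a long intergenic non-coding RNA on the minus strand of chromosome 1 (155520173 to 155527143, GRCm38), which falls outside the rule for naming genes and was chosen after its values were seen. The annotation used gives it no function. In the 6 sham libraries it stood at 2.39 CPM at the lowest, 2.89 at the median and 3.76 at the highest. After T9 the corresponding values were 6.34, 8.56 and 10.4 CPM. Every T9 library lay above every sham library. The gene rose by 1.44 ± 0.20 on the log2 scale (SE; 95% interval 1.02 to 1.86; limma adjusted p = 0.012). The change was 1.55 within the libraries numbered 60 and 1.23 within those numbered 57. The call held under 19 of 28 alternatives, 1 of which, with no filter on low genes, is identical to the fit reported. It did not hold with the replicate number as a block (1.44, adjusted p = 0.089), within the libraries numbered 60 (adjusted p = 0.068) or 57 (0.74), after centring (1.27, adjusted p = 0.079) or quantile normalization (1.30, 0.069), with voom weights on the recovered reads (1.45, 0.051), or without T9 replicates 1, 2 or 4 (smallest adjusted p of any gene 0.057, 0.051 and 0.059). Without sham replicates 3 and 4 it was 1.47 (adjusted p = 0.045).

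The genes next in order of p that carry a function had large estimates and missed the threshold. Asb11, a muscle gene for a substrate adaptor of a cullin ubiquitin ligase, stood at 134, 165 and 250 CPM in sham (lowest, median and highest) and at 287, 352 and 404 after T9. All 6 T9 libraries were above all sham libraries, and the estimate was 0.97 ± 0.17 (adjusted p = 0.061). Ppargc1a encodes PGC-1α, a coactivator that drives mitochondrial genes in muscle. It stood at 16.8, 36.0 and 83.6 CPM in sham and at 77.2, 119 and 148 after T9. The groups overlapped through sham replicate 5 alone, at 83.6 CPM, and 5 of 6 T9 libraries exceeded it. The estimate was 1.65 ± 0.31 (95% interval 1.0 to 2.31, adjusted p = 0.074). It was 1.85 within the libraries numbered 60, 1.26 within those numbered 57, and passed without sham replicate 5 (1.85, adjusted p = 0.035). Lrrc52, which encodes an auxiliary subunit of a potassium channel, went from 0.301, 1.11 and 2.44 CPM to 2.31, 4.33 and 6.46, an estimate of 2.1 ± 0.37 (adjusted p = 0.061). Its lowest T9 library lay below its highest sham library, and the other 5 lay above.

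Pdxk, the vitamin B6 kinase gene, differed by 1.24 ± 0.23 (adjusted p = 0.070) from a sham median of 2.75 CPM to 6.26. It passed after centring (1.07, adjusted p = 0.033) and after quantile normalization (1.02, 0.035). Dixdc1, of Wnt signalling, stood at 1.10 ± 0.20 (adjusted p = 0.070). Both genes were higher in all 6 T9 libraries than in any sham library. Such complete separation upward was found for 92 genes (0.818%), and downward for 5 (0.0444%). Mdh1, the cytosolic malate dehydrogenase, belongs to the first set, at 390, 519 and 604 CPM in sham and 785, 929 and 1117.5 after T9 (0.86 ± 0.18, adjusted p = 0.15). Dusp18, a dual-specificity phosphatase gene, had an estimate of 1.58 ± 0.34, and Nnat, an imprinted gene for a membrane proteolipid, one of 2.22 ± 0.46 at 0.301 to 4.99 CPM (adjusted p = 0.15 for both). BB123696, a non-coding RNA, stood at 1.47 ± 0.26 (adjusted p = 0.061).

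The promoters of the called gene and of Asb11, Ppargc1a and Lrrc52, whose values were just given, run from 250 bases before to 50 after the start (RefSeq, GRCm38.p6) and are shown because Ppargc1a is known to be induced through cAMP in muscle. Capitals mark the half-site TGACG of the cAMP response element on either strand (CGTCA on the other). Gm5532 is read from the minus strand of chr1:155527062-155527361, Asb11 from the plus strand of chrX:164436744-164437043, Ppargc1a from the minus strand of chr5:51567676-51567975 and Lrrc52 from the minus strand of chr1:167466731-167467030.
Gm5532: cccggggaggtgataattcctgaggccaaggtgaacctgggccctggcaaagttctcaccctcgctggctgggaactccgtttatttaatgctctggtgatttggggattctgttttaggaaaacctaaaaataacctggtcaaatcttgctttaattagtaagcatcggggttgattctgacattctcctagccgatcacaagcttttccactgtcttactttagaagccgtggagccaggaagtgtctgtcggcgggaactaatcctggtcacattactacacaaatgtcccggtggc
Asb11: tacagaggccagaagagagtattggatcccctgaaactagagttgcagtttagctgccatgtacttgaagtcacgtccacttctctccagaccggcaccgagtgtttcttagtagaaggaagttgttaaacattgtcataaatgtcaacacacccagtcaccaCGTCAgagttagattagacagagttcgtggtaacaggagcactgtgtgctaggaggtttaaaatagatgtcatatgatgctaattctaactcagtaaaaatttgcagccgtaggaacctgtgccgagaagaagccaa
Ppargc1a: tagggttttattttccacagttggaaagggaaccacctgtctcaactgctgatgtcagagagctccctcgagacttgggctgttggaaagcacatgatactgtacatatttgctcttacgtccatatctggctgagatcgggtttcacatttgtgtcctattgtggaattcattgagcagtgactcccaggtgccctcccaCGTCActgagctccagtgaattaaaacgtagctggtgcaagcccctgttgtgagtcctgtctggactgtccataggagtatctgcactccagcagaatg
Lrrc52: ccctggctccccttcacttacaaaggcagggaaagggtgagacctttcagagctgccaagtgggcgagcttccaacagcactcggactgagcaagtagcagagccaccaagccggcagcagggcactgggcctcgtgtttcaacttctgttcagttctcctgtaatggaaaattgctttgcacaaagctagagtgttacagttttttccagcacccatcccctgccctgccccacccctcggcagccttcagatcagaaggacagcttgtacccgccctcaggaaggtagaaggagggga
The half-site occurs once in the windows of Asb11 and Ppargc1a and in neither of the others, and 20.8% of all 32851 RefSeq promoter windows of this length hold it. The full palindrome TGACGTCA, which contains the half-site, is in 1.79% of all windows and in 0 of these 4. The E-box CACGTG (7.15% of windows) is also in 0 of the 4.

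Of the estimates downward 0 passed. Dupd1, a phosphatase gene of muscle, stood at 25.6, 42.3 and 75.6 CPM in sham and at 9.86, 13.9 and 44.8 after T9. T9 replicate 5, at 44.8 CPM, was the only T9 library inside the sham range. The estimate was -1.42 ± 0.31 (adjusted p = 0.15), and without that library it was -1.80 (adjusted p = 0.00042). Smox, the spermine oxidase gene of polyamine breakdown, stood at 214, 404 and 1019 CPM in sham and at 94.0, 172 and 265 after T9. Of the T9 libraries 4 lay below all sham libraries, with an estimate of -1.27 ± 0.31 (adjusted p = 0.17). Angptl4, an inhibitor of lipoprotein lipase, had the lowest estimate of all genes (-1.80 ± 0.53, adjusted p = 0.26). Nmrk2, a nicotinamide riboside kinase, stood at -1.44 ± 0.51, Mettl21c, a muscle lysine methyltransferase, at -1.10 ± 0.28 and the immunoglobulin heavy chain gene Ighm at -1.35 ± 0.34, none of them called. The highest estimate, 3.62 ± 1.22 for the peptide transporter Slc15a2, was chosen after its value was seen and rests on a sham library with 0 reads.

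**Figure D3:**
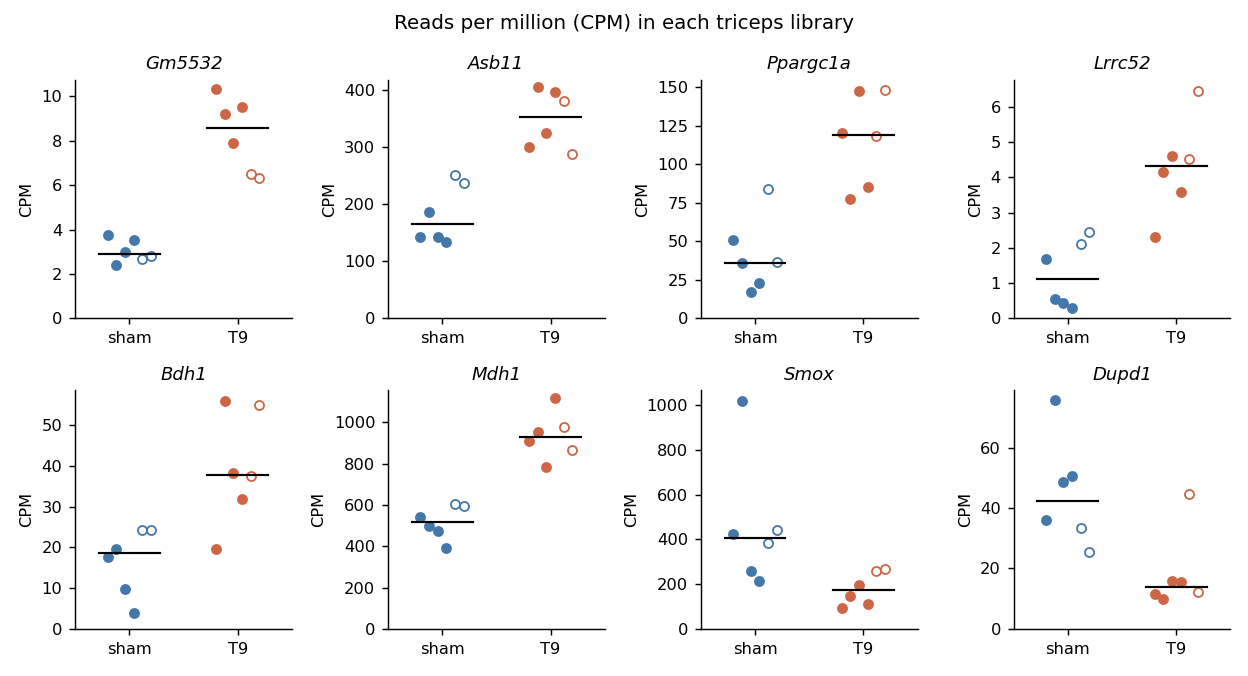
CPM (vertical axis, from 0) of 8 genes in each of the 12 triceps libraries, filled points for the label number 60, open points for 57, with the median as a bar. The T9 points of Gm5532, Asb11 and Mdh1 all lie above the sham points, while in the other panels at least 1 library lies in the range of the other group.

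Of the lists of muscle protein breakdown, that of the proteasome was bounded most closely. All 32 proteasome subunits were shown to lie within 2-fold of sham (87.1% of all genes were). Of the 32, 20 were within 1.5-fold (31.9% of all genes), and their median log2 change was 0.10 against 0.17 over all genes. Psmd4, a ubiquitin receptor of the proteasome, stood at 156, 173 and 248 CPM in sham and at 157, 178 and 223 after T9. The groups overlapped throughout, and the 95% interval of the difference was -0.41 to 0.41 (adjusted p of the 2-fold margin 0.00013). Psmd7, of the proteasome lid, was narrower still, from -0.20 to 0.26. Psmd2 had the largest estimate of the list at 0.53 ± 0.22 (interval 0.08 to 0.98). Of 30 autophagy and lysosome genes 28 were within 2-fold (93.3%, near the 87.1% of all genes), with a median change of 0.18. They include the lysosomal proteases Ctsl (0.28 ± 0.21, interval -0.16 to 0.72) and Ctsd (0.24 ± 0.12) and the lysosomal membrane gene Lamp1 (0.22 ± 0.09). For Lamp1 all 6 T9 libraries (448 to 466 CPM) exceeded all sham libraries (343 to 421), as for 92 genes (0.818%) in total. Its adjusted p was 0.42, and its estimate lay near the median of 0.17 over all genes. The lowest Lamp1 estimate among the alternatives was 0.05.

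Of 31 FoxO factors and muscle ubiquitin ligases 21 were within 2-fold (67.7%, against 87.1% of all genes). The count was 29 after centring and 30 without sham replicates 3 and 4. In the fit reported 0 were called, and 1 had an unadjusted p under 0.05 upward and 0 downward (9.94% and 0.596% of all genes). The median change was 0.27 (0.10 after centring, -0.05 without those libraries). Trim63, which encodes MuRF1, stood at 223, 276 and 531 CPM in sham and at 174, 312 and 360 after T9. The values interleave, and the difference of -0.14 ± 0.31 had an interval of -0.78 to 0.51, inside the 2-fold margin (adjusted p = 0.0087). Fbxo32, which encodes atrogin-1, stood at 100.4, 152 and 243 CPM in sham and at 91.7, 242 and 291 after T9. Its interval of -0.43 to 1.22 crosses the margin, so it includes a change of up to 2.33-fold, and after centring the gene was within 2-fold (adjusted p = 0.024). For the transcription factor Foxo1 the interval ran from -0.18 to 1.41. For Foxo3, which has the smallest p of the list, it ran from 0.07 to 1.37 (adjusted p = 0.44), and after centring that gene too was within 2-fold (adjusted p = 0.045).

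**Figure D4:**
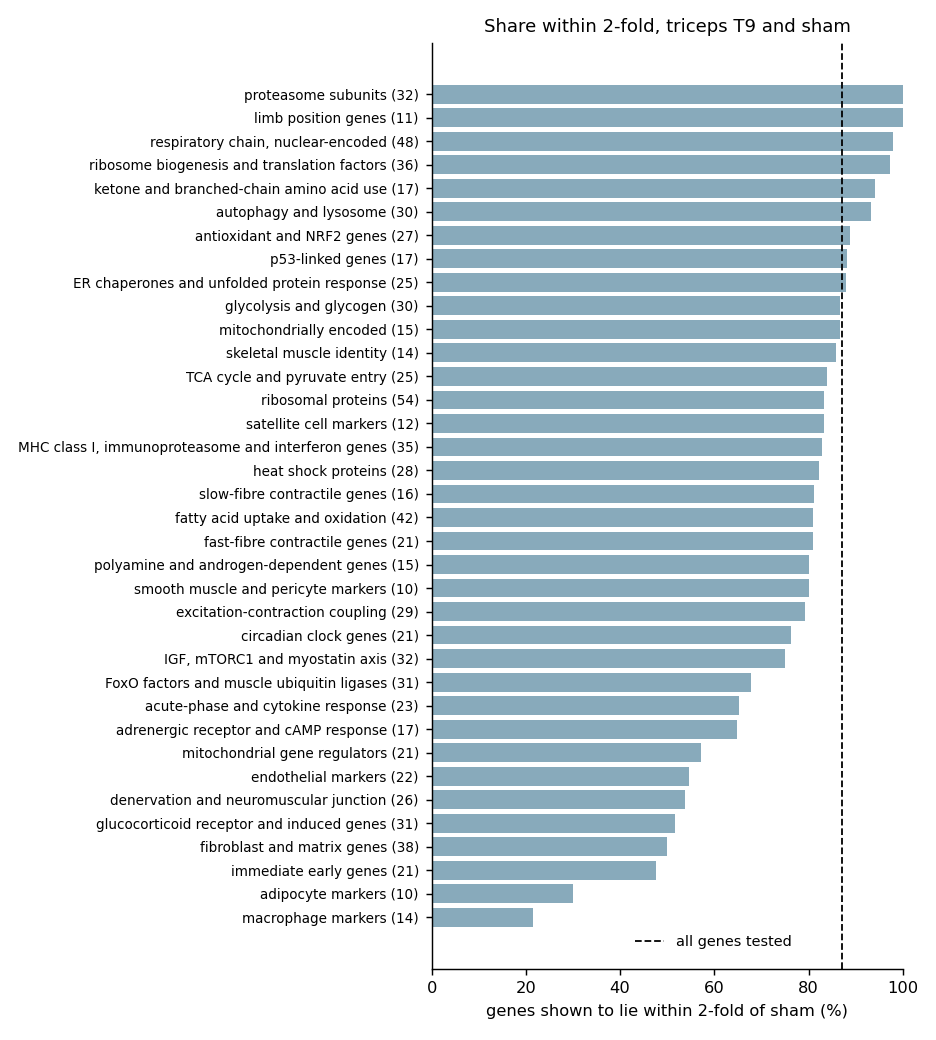
Percentage of each list's genes (horizontal axis) shown to lie within 2-fold of sham in the triceps after T9, for lists with at least 10 genes in the table, with the number of genes in brackets. The dashed line marks the 87.1% over all genes. The proteasome list and the nuclear-encoded respiratory chain list lie above it, while macrophage and adipocyte markers lie below.

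Glucocorticoid-induced genes were the least bounded of the wasting-related lists together with those of denervation. Of 31 genes of the glucocorticoid list 16 were within 2-fold, 5 had an unadjusted p under 0.05 upward and 1 downward (9.94% and 0.596% of all genes), and the median change was 0.36. After centring 2 were upward and 3 downward, with a median of 0.19, and without sham replicates 3 and 4 the counts were 7 and 3. Tsc22d3, which encodes the glucocorticoid-induced leucine zipper, had the smallest p, at 97.7, 132 and 191 CPM in sham and 142, 238 and 342 after T9 (0.75 ± 0.18, adjusted p = 0.15). Of its T9 libraries 4 lay above all sham libraries. Fkbp5, a chaperone of the receptor, was within the margin at 0.28 ± 0.29 (interval -0.33 to 0.89), and so was the factor Klf15 at 0.29 ± 0.27 (-0.27 to 0.85). Cebpb, a transcription factor gene, stood at 0.80 ± 0.26 and was not bounded, because its interval of 0.26 to 1.34 crosses the margin. The metallothionein Mt1 was within it at 0.55 ± 0.22, and Mt2, at a sham median of 1.57 CPM, was not (-0.37 to 1.23).

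Genes that respond to loss of nerve supply were low and variable. Of 26 such genes 14 were within 2-fold and 0 were called. An unadjusted p under 0.05 was found for 2 upward and 0 downward (9.94% and 0.596% of all genes). The median change was 0.27, or 0.10 after centring and 0.15 without sham replicates 3 and 4. Myog, the myogenic factor that drives acetylcholine receptor genes, stood at 2.93, 3.94 and 27.5 CPM in sham and at 6.02, 7.84 and 22.4 after T9. The sham maximum came from replicate 4, and the interval of -0.16 to 1.74 includes a change of up to 3.34-fold. Without sham replicates 3 and 4 the estimate was 1.17 (adjusted p = 0.46). Chrna1, the alpha subunit of the receptor, stood at 0.46 ± 0.42 (-0.43 to 1.34) and Chrnd, its delta subunit, at 0.70 ± 0.45 (-0.26 to 1.65). Hdac4, a deacetylase that represses Myog's inhibitors, had an interval of -0.18 to 1.41. Gadd45a, induced in denervated muscle, had an estimate of -0.08 ± 0.49 and passed the 2-fold margin narrowly (adjusted p = 0.043, 95% interval -1.10 to 0.94). Rapsn, which clusters the receptor, was within the margin at 0.40 ± 0.16. Ankrd1, a stretch-responsive gene, had an estimate of 1.63 ± 0.71 (0.14 to 3.13, adjusted p = 0.45), with T9 libraries from 11 to 173 CPM.

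Of 32 genes of the IGF, mTORC1 and myostatin axis 24 were within 2-fold (median 0.17). At an unadjusted p under 0.05 there were 1 upward and 0 downward (9.94% and 0.596% of all genes). Rps6kb1, for a kinase downstream of mTORC1, had the interval -0.24 to 0.22 and the translation repressor Eif4ebp1 the interval -0.33 to 0.41, both inside even the 1.5-fold margin. Mstn, the growth inhibitor myostatin, was within 2-fold at 0.33 ± 0.21. Igf1, the growth factor, stood at 8.77, 16.8 and 41.9 CPM in sham and at 6.34, 14.4 and 19.1 after T9, an estimate of -0.56 ± 0.31 that the margin does not bound (-1.21 to 0.10). Of 15 polyamine and androgen-dependent genes 12 were within 2-fold. Amd1, of spermidine synthesis (-0.27 ± 0.27), was among the 12, and Smox was not. The cell cycle inhibitor Cdkn1a was within 2-fold as well (0.17 ± 0.36, interval -0.59 to 0.92).

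No gene of the lists of fuel use was called. Of 42 genes of fatty acid uptake and oxidation 34 were within 2-fold (81.0%, against 87.1% of all genes). At an unadjusted p under 0.05 there were 13 upward and 1 downward (9.94% and 0.596% of all genes), and the median was 0.27. After centring those counts were 5 and 2, with a median of 0.10, and without sham replicates 3 and 4 they were 8 and 1. Hadhb, of the trifunctional protein of beta-oxidation, stood at 144, 222 and 320 CPM in sham and at 290, 341 and 409 after T9 (0.65 ± 0.16, adjusted p = 0.16). Fabp3, the muscle fatty acid binding protein, stood at 0.83 ± 0.29, with 4 of 6 T9 libraries above all sham libraries, and the dehydrogenase Acadm at 0.43 ± 0.12. Of 17 ketone and branched-chain amino acid genes 16 were within 2-fold (94.1%) and 7 had such a p upward, 3 after centring. The exception to the margin was Bdh1, which interconverts ketone bodies, at 3.91, 18.6 and 24.3 CPM in sham and 19.5, 37.8 and 55.9 after T9 (1.41 ± 0.34, adjusted p = 0.17). Sham replicates 3 and 4 had its lowest values, 9.77 and 3.91 CPM, and without both libraries the estimate was 0.91 (adjusted p = 0.50). Of 25 genes of the TCA cycle and pyruvate entry 21 were within 2-fold (84.0%). Idh2, the mitochondrial isocitrate dehydrogenase, was not bounded, at 0.84 ± 0.21 (interval 0.41 to 1.28). Of 21 mitochondrial gene regulators 12 were within 2-fold (57.1%, below the share of all genes), and Perm1, which acts with PGC-1α, stood at 0.63 ± 0.30 (0.00 to 1.27).

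Of 48 nuclear-encoded subunits of the respiratory chain 47 lay within 2-fold (97.9%, against 87.1% of all genes) and 19 within 1.5-fold. After centring 37 of the 48 were within 2-fold, where the share of all genes was 90.8%. Without sham replicates 3 and 4 all 48 were. The median change of the 48 was 0.07 with 0 calls, and Atp5a1 of ATP synthase stood at 0.34 ± 0.13. Of the 15 mitochondrially encoded genes 13 were within 2-fold (86.7%, near the share of all genes), with mt-Nd4 of complex I at 0.51 ± 0.19. Those 15 genes took 11 to 16.8% of a sham library's reads (median 12.8%) and 12.1 to 17.5% after T9 (15.3%). In glycolysis and glycogen metabolism 26 of 30 genes were within 2-fold (86.7%, also near that share). The muscle enolase Eno3 stood at -0.23 ± 0.14 (interval -0.52 to 0.06, inside 1.5-fold). The lactate dehydrogenase genes had estimates of opposite sign, -0.42 ± 0.15 for Ldha and 0.60 ± 0.19 for Ldhb, each within 2-fold and neither called.

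Several contractile genes varied widely between libraries of a group. Of 21 fast-fibre genes 17 were within 2-fold, and their median change was -0.03. At an unadjusted p under 0.05 there were 1 upward and 4 downward (9.94% and 0.596% of all genes). After centring there were again 1 and 4 (3.64% and 2.14% of all genes), with a median of -0.20. Without sham replicates 3 and 4 both counts were 0 and the median was -0.25. Their summed level was 152643 to 199959 CPM in sham and 127080 to 151737 after T9, ranges that do not overlap. This sum was not tested, and its separation was not compared with that of the other lists' sums. It is carried by a few abundant genes, such as Pvalb, the calcium buffer of fast fibres (sham median 15276 CPM, T9 8861, -0.60 ± 0.26, adjusted p = 0.44), and the myosin light chain Mylpf (-0.57 ± 0.26, adjusted p = 0.46). Over the alternatives run, the estimates ranged from -1.06 to 0.32 for Pvalb and from -0.98 to 0.24 for Mylpf. The fast myosin heavy chain Myh4 ranged from 5976 to 44136 CPM in sham and from 7098 to 35230 after T9 and was within 2-fold (0.13 ± 0.39). Myh2, of fast oxidative fibres, ranged from 149 to 3284 CPM in sham and from 716 to 4694 after T9 (1.11 ± 0.51, adjusted p = 0.47). Of 16 slow-fibre genes 13 were within 2-fold, with Myl2 at 0.14 ± 0.32. The slow myosin Myh7, at 16.5 to 686 CPM in sham, was not bounded (-0.80 to 1.71). In bulk samples a smaller number of cells of a type and less RNA per cell cannot be told apart.

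Over all genes 9.94% had an unadjusted p under 0.05 upward and 0.596% downward, or 3.64% and 2.14% after centring. Of 28 heat shock genes 23 were within 2-fold and 10 had such a p upward and 0 downward, 4 and 1 after centring and 5 and 1 without sham replicates 3 and 4. Dnajb1, a cochaperone of HSP70, stood at 4.52, 5.26 and 6.77 CPM in sham and 6.15, 9.70 and 16.3 after T9 (0.92 ± 0.22, adjusted p = 0.17), and Hspb7, a small heat shock protein of striated muscle, at 0.95 ± 0.27. Of 17 genes of adrenergic receptors and the cAMP response 11 were within 2-fold and 5 had such a p upward (4 after centring, 3 without those libraries). Ppargc1a was among those 5. Crem, a repressor of cAMP-responsive genes, stood at 0.72 ± 0.19 (adjusted p = 0.19), with 5 of 6 T9 libraries above all sham libraries, and Pde4b, a cAMP phosphodiesterase, at 0.94 ± 0.23 (adjusted p = 0.17). Of 21 immediate early genes 10 were within 2-fold and 7 had such a p upward (4 after centring and 4 without those libraries), among them Ier3 at 0.71 ± 0.18, while Dusp1, a phosphatase of MAP kinases, was within 2-fold at 0.43 ± 0.24. The endoplasmic reticulum chaperone Calr had an interval of -0.18 to 0.22. Of 21 clock genes 16 were within 2-fold, with Nr1d2 at -0.08 ± 0.13 and Per2 at 0.74 ± 0.36. The median change of the 54 ribosomal protein genes was -0.31, below that of all genes, and 45 of the 54 were within 2-fold, but 17 after centring. Their summed level was 45618 and 51712 CPM in sham replicates 3 and 4 and 12424 to 32492 in the other 10 libraries, and without those replicates the median change was 0.13, with 54 of 54 genes within 2-fold. Rplp0, of the large subunit, had an interval of -0.36 to 0.35.

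Markers of other cell types were bounded to different degrees. Of 12 satellite cell markers 10 and of 10 smooth muscle and pericyte markers 8 were within 2-fold. Of 14 macrophage markers 3 were within 2-fold (9 without sham replicates 3 and 4) and 0 were called. Lyz2 stood at 9.01, 18.9 and 705 CPM in sham and 9.92, 16.5 and 37.1 after T9 (-0.79 ± 0.68, and 0.20 without sham replicates 3 and 4), and Ctss, a lysosomal protease of these cells, at 1.57, 1.71 and 85.8 CPM in sham and 0.503, 1.86 and 4.05 after T9. Both sham maxima belong to replicate 4. Cd68 had an interval of -0.67 to 2.22. Of 38 fibroblast and matrix genes 19 were within 2-fold, and the collagen genes Col1a1 (-0.35 ± 0.41) and Col3a1 (-0.69 ± 0.53, sham maximum 465 CPM) were not. Of 22 endothelial markers 12 were within 2-fold (20 after centring). At an unadjusted p under 0.05 there were 5 upward and 1 downward (9.94% and 0.596% of all genes). After centring, and also without sham replicates 3 and 4, these counts were 3 and 2. The median change without those libraries was -0.02. The fat hormone gene Adipoq (0.65 ± 0.30) and the globin gene Hba-a1 (0.68 ± 0.24) were neither called nor bounded. Of the neutrophil list and of the T and NK cell list 0 genes were in the table. Adgre1, the macrophage marker that encodes F4/80, was not among the genes listed.

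The T9 effect differed between the muscles. In the 24 libraries of 12 mice, with the mouse as a block, limma called 423 genes (3.76%) with a higher effect in the gastrocnemius than in the triceps and 359 (3.19%) with a lower effect (after centring 364, or 3.24%, and 560, or 4.98%). The triceps effect in that fit rests on the 4 sham and 4 T9 libraries numbered 60, and that the second number of a description names the mouse is an inference. The deviations from the group mean, correlated over genes between the triceps and gastrocnemius libraries of 1 number, had r from -0.64 (sham replicate 3) to 0.86, and in 4 of 8 sham and T9 mice the own number gave the highest r. Without the mouse of triceps sham replicate 3 the counts were 1041 and 447. The higher effects include Gadd45a, at 3.45 ± 0.16 in the gastrocnemius against -0.08 ± 0.49 in the triceps (difference 3.79 ± 0.72, adjusted p = 0.0079), and Cdkn1a (difference 3.70 ± 0.63, adjusted p = 0.0044). Of the protein breakdown genes, Trim63 differed by 1.90 ± 0.24 (adjusted p = 0.00094), Ctsl by 2.0 ± 0.30, Fbxo32 by 2.0 ± 0.43 and Psmd4 by 1.09 ± 0.21. Of 32 proteasome subunits 12 had a higher effect in the gastrocnemius and 0 a lower one, and 4 and 0 after centring. Eif4ebp1 differed by 1.31 ± 0.14 and Mt1 by 1.45 ± 0.30. The receptor genes Chrnd (3.85 ± 0.84) and Chrna1 (2.81 ± 0.71) and their activator Myog (3.75 ± 0.88) passed too, but each lost its call when single mice were left out, Chrnd without the mouse of triceps sham replicate 4 or T9 replicate 3, Myog without that of sham replicate 4 or T9 replicates 1, 2 or 3, and Chrna1 without that of sham replicates 2 or 4 or any T9 mouse.

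Several named genes of oxidative metabolism had the reverse difference. Ppargc1a was lower after T9 in the gastrocnemius (-1.25 ± 0.31, adjusted p = 0.0073), and its effect differed from that in the triceps by -3.10 ± 0.26 (adjusted p = 5.5e-05). Perm1 differed by -4.60 ± 0.39 and Bdh1 by -6.33 ± 0.46. Fabp3 differed by -2.94 ± 0.43, Ldhb by -2.74 ± 0.30, Idh2 by -2.48 ± 0.25 and Mdh1 by -2.20 ± 0.28, and each kept its call under all 12 alternatives of this comparison. Of 16 slow-fibre genes 4 had a lower effect in the gastrocnemius and 1 a higher one (3.19% and 3.76% of all genes). Myl2 differed by -3.80 ± 0.45, while the slow myosin Myh7 did not pass (-0.68, limma adjusted p = 0.77). Of 21 fast-fibre genes 3 had a lower effect and 1 a higher one, and Myh2 differed by -3.61 ± 0.57. Atp1b1, the beta subunit of the sodium pump, differed by -2.90 ± 0.26, and Gm5532 by -2.81 ± 0.41. Lrrc52 had 199 reads over the 4 sham and 3 over the 4 T9 gastrocnemius libraries, a ratio of 60.39 (exact 95% counting interval 20.4 to 295), so its fitted difference of -7.94 depends on the offset of the log scale.

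**Figure D5:**
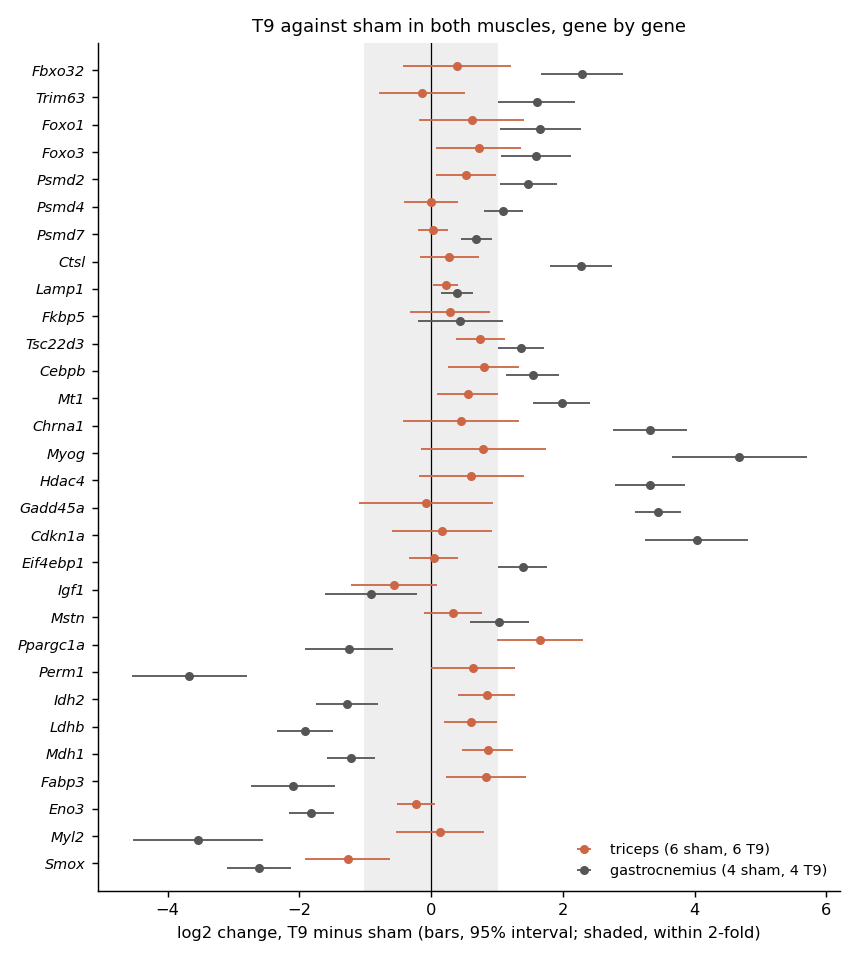
Log2 change, T9 minus sham, with its 95% interval for 30 genes in the triceps and in the gastrocnemius, with the range within 2-fold shaded. The triceps estimates of the wasting genes at the top lie in the shaded range or cross it, while Gadd45a at 3.45 and Cdkn1a at 4.03 lie far to the right in the gastrocnemius, and Ppargc1a lies on opposite sides of 0 in the 2 muscles.

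Within the triceps, T3 and T9 were compared directly in the fit of all 18 libraries, where sham libraries enter the variance and the number term but not the means compared. Limma called 557 genes higher after T3 than after T9 (4.95%) and 298 lower (2.65%), and after centring 546 (4.85%) and 433 (3.85%). With the 12 T3 and T9 libraries alone the counts were 654 and 372. Of 32 proteasome subunits 25 were higher after T3 (17 after centring), among them Psmd4 (1.33 ± 0.19, adjusted p = 0.00053) and Psmd2 (1.09 ± 0.22), and 0 were lower. Trim63 was higher by 2.31 ± 0.31 (adjusted p = 0.00034), Fbxo32 by 2.08 ± 0.39, Ctsl by 1.07 ± 0.21, Ctsd by 1.04 ± 0.12 and Eif4ebp1 by 1.90 ± 0.18 (adjusted p = 2.8e-05). Of the glucocorticoid list 11 of 31 genes were higher after T3 (8 after centring) and 0 lower, with Mt1 at 1.41 ± 0.22, and Klf15 at 1.12 ± 0.27. Krt80, a keratin gene, differed by 3.15 ± 0.47 and Cd68 by 3.01 ± 0.69. Igf1 (-1.41 ± 0.31), Smox (-1.51 ± 0.31), Amd1 (-1.10 ± 0.27), Mettl21c (-1.94 ± 0.28) and Crem (-1.09 ± 0.19) were lower after T3. The difference for the receptor genes Chrna1 (-0.34 ± 0.42) and Chrnd (0.22 ± 0.45) did not pass. For Ppargc1a it was 0.61 ± 0.31 (adjusted p = 0.28), and for Gm5532 it was 1.06 ± 0.20 (adjusted p = 0.0035), so its level after T3 lay above that after T9.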

How the data were processed

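Per the labels' protocols, polyA RNA of each muscle was sequenced, paired-end and strand-specific. HISAT2 2.1.0, GRCm38, featureCounts, Subread 1.5.1 and limma are named in the submitters' processing notes. Not given in the sources used here are the annotation release and whether counting used strand. As deposited by the authors, values are log2 CPM with 0.5 reads added: whole reads came out for 100% of values within 0.01 reads, which gave the depths, and with voom weights on those reads limma called 0 genes. The log2 scale with its offset understates the change of low genes.

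A gene was tested where 4 or more triceps libraries had a log2 value of 0 or above, which kept all 11249. The 18 triceps libraries were fitted with limma 3.58.1 in R 4.3.3 (trended empirical Bayes, two-sided tests, 14 residual degrees of freedom), with a term for the number 57 or 60, whose meaning the labels do not state. Adjusted p-values are Benjamini-Hochberg over all genes, threshold 0.05. Equivalence used 2 one-sided tests per gene against a log2 margin of 1 (0.585 for the narrower). Tests were checked on simulated data. Differences between muscles used 24 libraries with the mouse as a fixed block.

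Comparisons that share sham or T9 libraries are not independent. The comparison, the 42 gene lists (870 of 984 genes in the table) and the rule for naming genes were chosen with earlier results of these data known. Named genes have the smallest p in a direction or in a list, the narrowest interval in a list, a place in a panel of 50 genes (49 in the table) or the largest difference between muscles, and exceptions are marked. Some genes that this rule names are not reported here. Of the gene IDs 11240 matched a symbol and 9 did not. No replicate pair agreed within sampling noise (chi-square per degree of freedom 9.78 to 609). Sequences are RefSeq's. Intervals for counts of reads cover counting error only.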

Additional observations from a re-analysis of the deposited data

Results flagged for a closer look

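Single libraries lay far from the other 5 of their group for 12 of the 166 sets of 6 values examined, by the gap to the nearest library relative to the group's range, where chance gives about 1 in 20. Sham replicate 4 was highest for 4 genes, with log2 values of 9.46 for Lyz2, 6.42 for Ctss, 4.79 for Myog and 2.49 for Mt2. Sham replicate 3 was highest for Psmd4 (7.95) and lowest for mt-Nd4 (12.1) and Chrnd (-1.57). Sham replicate 1 was lowest for Ighm (4.43) and sham replicate 2 for Myl2 (5.97). After T9, replicate 5 was highest for Dupd1 (5.49) and Ldha (11.4), and replicate 1 was lowest for Psmd2 (7.84).

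The T9 effect of 40 named genes differed between the muscles by limma's test of the difference itself (gastrocnemius minus triceps, log2). The effect was lower in the gastrocnemius for Lrrc52 (-7.94), Bdh1 (-6.33), Perm1 (-4.60), Myl2 (-3.80), Myh2 (-3.61), Ppargc1a (-3.10), BB123696 (-3.04), Fabp3 (-2.94), Atp1b1 (-2.90), Gm5532 (-2.81), Ldhb (-2.74) and Dusp1 (-2.74). It was also lower for Idh2 (-2.48), Mdh1 (-2.20), Dusp18 (-1.89), Eno3 (-1.43), Acadm (-1.08), Smox (-1.04), Asb11 (-1.03), Crem (-1.0) and Atp5a1 (-0.955).

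The effect was higher in the gastrocnemius for Chrnd (3.85), Gadd45a (3.79), Myog (3.75), Cdkn1a (3.70), Krt80 (3.00), Chrna1 (2.81), Mt2 (2.61), Hdac4 (2.26), Fbxo32 (2.0), Ctsl (2.0) and Trim63 (1.90). It was also higher for Mt1 (1.45), Eif4ebp1 (1.31), Psmd4 (1.09), Ctsd (0.82), Mstn (0.768), Calr (0.726), Psmd7 (0.688) and Tsc22d3 (0.617). Of the 40 differences 27 held under every alternative run for that comparison. Mstn lost its call under 11 of the 12, Tsc22d3 under 10, Ctsd under 9 and Psmd7 under 6, centring among them for each. Smox lost its call under 7 and Chrna1 under 6, centring not among them.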

How the results depend on the processing

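No call on a gene named in the text changed sign under the alternatives run. Estimates of genes that were not called moved more. For T9 against sham, Nmrk2 ranged from -2.12 to -0.07 and Mettl21c from -1.64 to -0.02. Others changed sign, among them Hspb7 (-0.12 to 1.48), Myh2 (-0.42 to 1.87) and Ankrd1 (-0.08 to 2.49). The number of genes called higher after T9 in the triceps, 1 in the fit reported, was 2 after quantile normalization, after centring and without sham replicates 3 and 4, 11 with the library median as a covariate, 204 with library weights, and 0 with voom weights, with only number 60 and with only number 57. Leaving out single libraries gave 0 to 6. The number lower, 0 as reported, was 1 in the 12 libraries alone, 1 with only number 60, 4 with the median covariate, 26 with library weights and 0 to 1 without single libraries. Library weights gave sham replicates 3 and 4 weights of 0.145 and 0.160 and T9 replicate 6 one of 5.78. The cause of these moves was not tested. Genes within 2-fold fell to 6107 with only number 60 and were 8836 to 10548 without single libraries. Genes within 1.5-fold were 5789 after quantile normalization, 5575 after centring, 5465 with a pseudocount of 1 CPM, 9578 with library weights, 7757 with the median covariate, 6030 without sham replicates 3 and 4, 0 with number 60 or 57 alone (fewer samples), and 2368 to 4977 without single libraries. Between muscles, the counts of higher and lower effects were 240 and 207 without the mouse block, 560 lower after centring, 666 lower after quantile normalization, and 163 to 1041 higher and 190 to 447 lower without single mice. Of 40 named differences between muscles 27 kept their call under every alternative, and of 31 between T3 and T9 20 did. T3 against T9 gave 455 lower after quantile normalization, and 371 to 715 higher and 168 to 351 lower without single libraries. The difference of library medians was 0.083 to 0.22 without single libraries (exact permutation p 0.123 to 0.431).

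Same-numbered sham and T9 libraries deviated together from their group means at r above 0.1 in 4 of 6 cases (-0.63 to 0.84), so the numbers were not taken as pairs. With the replicate block, T9 against sham gave 0 higher and 0 lower (smallest adjusted p 0.089), 1299 genes within 1.5-fold, and T3 against T9 gave 258 higher and 134 lower. Of the 6 libraries 3 correlated best with their own number. Depth limits the genes under a mean log2 value of 2, of which 75.8% were placed within 2-fold.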
